A study of Mus musculus with 19 samples.

Results

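Oxidative phosphorylation genes of the nucleus were read out in total RNA of mouse mammary tissue. Every listed gene symbol that begins with Nduf followed by a, b, c, s or v, with Uqcr or Uqcc, with Cox4 to Cox8 or with Atp5, together with Sdha to Sdhd, was taken, leaving out pseudogenes marked -ps, if it had at least 10 reads summed over the 19 libraries. Of 95 matching symbols 92 were kept, out of 24421 genes listed. Cox7b2, Cox8c and Ndufs5 were listed at 0 reads in every library. Ndufs5 encodes a subunit of complex I. A count of 0 does not show that it is not expressed, and the cause was not tested. The 92 genes comprise 42 of complex I, 4 of complex II, 11 of complex III, 18 of complex IV and 17 of complex V. Of them 10, with Nduf or Uqcc symbols, were classed as assembly factors. In complex V 2 genes, Atp5s and Atp5sl, were not classed as subunits. Atp5sl was counted there by its symbol, and the annotation names it Dmac2. Counts and medians of complex V include both. The rule itself uses symbols and the minimum of 10 reads, and no difference between groups. Genes encoded by the mitochondrial genome are not in the tables and were not analysed here.

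The strain label of every library is C57BL/6, and the study's methods give C57BL/6 N (Charles River) for the edited mice. Wild-type (WT) glands were sampled at pregnancy day 6 (p6, n = 3) and day 18 (p18, n = 3), and glands with the label Enhancer-delS1-4, taken here as the study's deletion of the super-enhancer of the Csn1s2b locus (ΔSE), at p6 (n = 4) and p18 (n = 4). A separate set labelled p18 holds glands lacking the proximal enhancer of Csn3 (delCsn3-PE, n = 2) or the enhancer of Csn1s2b (delCsn1s2b-E, n = 3) and has no WT glands of its own. The mutants were made by CRISPR/Cas9 editing, all groups share the same strain, and the libraries are whole tissue, so that fewer cells of a type and less RNA per cell cannot be told apart. The labels number the libraries within a group without saying whether each is a separate animal. The p-values therefore measure the spread between these libraries.

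Oxidative phosphorylation takes place at the inner mitochondrial membrane. Complexes I and II feed electrons from NADH and succinate into the chain, complex III passes them to cytochrome c, complex IV hands them to oxygen, and complex V, the ATP synthase, uses the resulting proton gradient to make ATP. The nucleus encodes most subunits and all assembly factors, and a few complex IV subunits exist as tissue isoforms, of which Cox6a2, Cox7a1 and Cox8b are known from striated muscle and brown fat. The secretory epithelium of the gland expands and differentiates over pregnancy while fat cells shrink, and milk synthesis draws heavily on ATP.

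Reads in genes numbered 12335272 to 20525175 in the WT and ΔSE libraries and 26848053 to 30329601 in the single-enhancer libraries, of which Rn45s, the precursor of ribosomal RNA, took 21.7% to 42.9% and 0.0765% to 0.924%, respectively. By group the Rn45s share was 29.2% to 40.4% in WT p6 and 21.7% to 36.3% in ΔSE p6. At p18 it was 29.7% to 33.4% in WT and 35.7% to 42.9% in ΔSE, without overlap. The casein genes near the deletions were checked first. Csn3 reached 5065 to 6466 CPM (counts scaled to library size, normalised by TMM factors) in WT p18 and 49.3 to 143 in ΔSE p18, and in a fit of the other set 5200 to 6764 in WT p18 and 270 to 1312 in delCsn3-PE. Csn1s2b stood at 42.9 to 222 CPM in WT p18 and 27.1 to 48.9 in delCsn1s2b-E, so that those groups overlapped. Summed over 10 epithelial and milk protein genes the level was 911 to 2186 CPM in WT p6, 464 to 792 in ΔSE p6, 31227 to 43028 in WT p18 and 14358 to 27164 in ΔSE p18. That list includes Csn2 and Csn3 of the casein locus, so the sum partly reads genes of the edited locus. Some libraries stood apart. In reads of the 92 genes, WT p6 replicate 1 and ΔSE p6 replicate 3 were lowest, with 0.336% and 0.469% of the reads other than Rn45s against 0.622% to 0.789% in the other p6 libraries. These libraries also had the highest Rn45s share of their groups, 40.4% and 36.3%. For 15 skeletal muscle genes, summed levels ranged from 8.86 to 4767 CPM over the 14 libraries. Counts in the WT and ΔSE comparisons were also made without the 2 low p6 libraries, and comparisons with WT at p18 also without the 2 WT p18 libraries high in muscle transcripts, which leaves WT p18 replicate 1 alone.

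Promoter windows of 250 bases before to 50 bases after the annotated start, taken from RefSeq (build GRCm38.p6), were at hand for 77 of the 92 genes. The motif of nuclear respiratory factor 1 (NRF1), read as GCGC, A, any base and GCGC, was found on either strand in 19 of these 77 genes (24.7%), against 5.19% of all 27018 genes with a window and 7.17% of the protein-coding ones. The ETS motif CCGGAAG, bound by factors such as GABPA, stood in 22.1% against 9.93% of all genes, and the YY1 motif AAGATGGC in 15.6% against 3.19%. The E-box CAGCTG, a form common at muscle genes, stood in 7.79% against 18.3%. These matches are letters in a window and do not show binding. No motif contains another, and partly overlapping matches of different motifs were each counted. The windows printed here belong to the housekeeping isoforms Cox6a1 and Cox8a, to the muscle and brown fat isoform Cox8b, and to Ndufs4 and Atp5e, 2 of the 3 genes that were lower in ΔSE than in WT tissue at p18. Capitals mark NRF1 and ETS matches in Cox6a1, ETS matches in Cox8a and Atp5e, E-boxes in Cox8b and the YY1 match in Ndufs4, and a match on the other strand appears as its reverse complement. The windows lie on the minus strand at chr5:115348909-115349208, chr19:7217567-7217866, chr7:140900397-140900696, chr13:114388045-114388344 and chr2:174464052-174464351, in that order.
Cox6a1: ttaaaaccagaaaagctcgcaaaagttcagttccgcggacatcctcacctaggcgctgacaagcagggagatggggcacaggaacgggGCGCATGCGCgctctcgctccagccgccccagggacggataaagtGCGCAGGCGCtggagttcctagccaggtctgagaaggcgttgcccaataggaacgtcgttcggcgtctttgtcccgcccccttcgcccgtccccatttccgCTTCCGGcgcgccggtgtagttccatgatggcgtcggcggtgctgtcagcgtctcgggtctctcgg
Cox8a: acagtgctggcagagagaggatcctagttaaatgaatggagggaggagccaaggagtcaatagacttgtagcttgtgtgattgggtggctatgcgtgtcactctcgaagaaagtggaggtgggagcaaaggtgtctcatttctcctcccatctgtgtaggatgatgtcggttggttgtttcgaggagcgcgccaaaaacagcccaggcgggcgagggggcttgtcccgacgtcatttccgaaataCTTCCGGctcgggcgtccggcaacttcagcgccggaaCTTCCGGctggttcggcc
Cox8b: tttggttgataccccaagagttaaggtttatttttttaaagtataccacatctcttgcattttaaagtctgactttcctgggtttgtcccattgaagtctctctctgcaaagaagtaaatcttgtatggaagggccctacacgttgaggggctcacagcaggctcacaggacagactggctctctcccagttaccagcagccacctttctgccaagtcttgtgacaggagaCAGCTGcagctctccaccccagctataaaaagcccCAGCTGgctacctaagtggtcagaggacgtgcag
Ndufs4: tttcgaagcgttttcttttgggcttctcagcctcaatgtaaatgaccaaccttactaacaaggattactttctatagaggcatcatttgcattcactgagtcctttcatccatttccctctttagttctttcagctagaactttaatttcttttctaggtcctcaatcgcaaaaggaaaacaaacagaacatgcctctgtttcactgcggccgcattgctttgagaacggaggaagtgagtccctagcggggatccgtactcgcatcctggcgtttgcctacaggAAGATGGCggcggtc
Atp5e: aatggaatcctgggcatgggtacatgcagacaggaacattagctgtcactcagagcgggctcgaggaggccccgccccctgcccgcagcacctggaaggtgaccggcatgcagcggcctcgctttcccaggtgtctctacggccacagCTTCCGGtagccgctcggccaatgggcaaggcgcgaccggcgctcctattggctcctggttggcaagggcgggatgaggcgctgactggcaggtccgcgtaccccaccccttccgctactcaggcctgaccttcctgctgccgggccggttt

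Cox6a1 held 2 NRF1 matches and 1 ETS match, Cox8a 2 ETS matches, Cox8b 2 E-boxes, Ndufs4 a YY1 match and Atp5e an ETS match. The third gene lower in ΔSE tissue, Ndufa7, held none of the 4 motifs in its windows. Cox6a2 and Cox4i1 had no window in the table.

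Per kilobase of transcript, Atp5b was the most abundant of the 92 genes, at a mean of 275 CPM per kb over the 14 WT and ΔSE libraries. It encodes the catalytic beta subunit of the ATP synthase. It was followed by Cox4i1 (247), Atp5a1 (203), Uqcrh (172) and Cox6b1 (140). The order of the first pair was reversed in WT p18, where Cox4i1 had a mean of 414 and Atp5b of 364 CPM per kb. The highest levels in complexes I and II were 93.8 CPM per kb for Ndufb9 and 56.8 for Sdha, the flavoprotein of succinate dehydrogenase. The median level per kb was 25.7 in complex I, 47.0 in complex II, 48.8 in complex III, 53.3 in complex IV and 61.4 in complex V. The 7 lowest levels per kb were those of the tissue isoforms Cox6b2 (0.394), Cox4i2 (1.41), Ndufa4l2 (1.91) and Cox6a2 (3.09), of Ndufab1, the mitochondrial acyl carrier protein (0.987), of Atp5s (2.20) and of the assembly factor Ndufaf6 (2.46). The transcripts are short, with a median of 891.5 bases against 2566 for protein-coding genes. The length used is that of 1 principal transcript a gene, for example 3479 bases for Ndufab1. Levels and ranks per kb depend on that choice. Of the 92 genes, 32 overlap an exon of another gene and 11 have a near-identical copy elsewhere in the genome. The strand setting of the counting is not given in the sources used here, so that reads of overlapping genes on opposite strands, such as Cox4i1 and Emc8 or Atp5a1 and Haus1, may not be separable.

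The first comparison asks how these genes changed over pregnancy in WT tissue. Of the 92 genes, 69 rose from p6 to p18 at an adjusted p under 0.05 (edgeR quasi-likelihood test, Benjamini-Hochberg over 17844 genes) and 0 fell, where 17.2% of all genes tested were called higher and 12.4% lower. At an unadjusted p under 0.05, 75 were higher and 1 lower, and DESeq2 called 70 higher and 1 lower. The median change was 0.91 on the log2 scale against -0.05 over all genes. In 72 genes all 3 p18 libraries lay above all 3 p6 libraries, as did 22.0% of all genes. The direction held in every complex: 32 of 42 genes rose in complex I, 2 of 4 in complex II, 9 of 11 in complex III, 12 of 18 in complex IV and 14 of 17 in complex V, with median log2 changes of 0.83, 0.59, 0.93, 1.12 and 0.97. The plot of levels by complex and library shows that the 3 WT p18 libraries were close together in complexes I, IV and V and that the p6 libraries were spread.

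**Figure D1:**
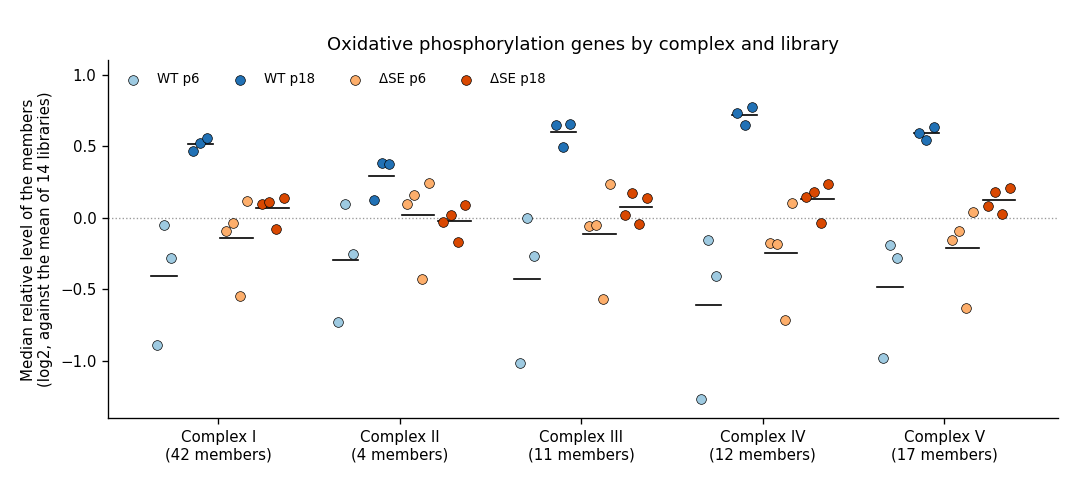
Median relative level of the genes of each complex (y axis, log2 of the normalised CPM relative to the mean of the 14 WT and ΔSE libraries, 6 tissue isoforms left out) by complex (x axis). Each point is a library and each bar a group mean; over all 86 genes WT p18 stood at 0.52 to 0.60, ΔSE p18 at -0.07 to 0.18, WT p6 at -0.95 to -0.07 and ΔSE p6 at -0.61 to 0.11.

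In complex I the largest rise was that of Ndufc2, a subunit of the membrane arm. Its level was 13.8, 21.4 and 22.3 CPM in the WT p6 libraries and 83.6, 80.1 and 94.7 in the WT p18 libraries. The groups were far apart, with means of 19.2 ± 4.66 and 86.1 ± 7.61 CPM (SD, n = 3 each), a log2 change of 2.16 ± 0.17 (SE, edgeR adjusted p = 2.23e-07). Ndufa1, another small membrane arm subunit, followed with 1.60 ± 0.24. Of the 7 core subunits, which carry the iron-sulfur clusters and the flavin or the quinone site, 5 rose, with a median log2 change of 0.58 against 0.94 for the 35 subunits of all kinds. Ndufs8 rose by 1.09 ± 0.25 and Ndufv2 by 0.94 ± 0.21, whereas Ndufs1, the largest core subunit, stood at 51.5, 81.7 and 55.2 CPM at p6 and 72.0, 79.3 and 76.7 at p18. These values overlap, and its change of 0.27 ± 0.19 was not called (edgeR adjusted p = 0.295). Of the 10 assembly factors of complexes I and III, 3 rose and the median change was 0.38. Across the 86 genes other than tissue isoforms, the change went with transcript length at a Spearman rho of -0.443 (Pearson r = -0.374 with log2 length), so that shorter transcripts changed more, and over 15571 genes tested rho was -0.188. Genes are not independent replicates, and they share these 6 libraries.

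In complex II only Sdhd and Sdhb rose. Sdhd, a membrane anchor, stood at 36.5, 54.4 and 51.0 CPM at p6 and at 90.4, 77.9 and 89.8 at p18, without overlap, a log2 change of 0.86 ± 0.19. Sdhb, the iron-sulfur subunit, changed by 0.70 ± 0.24. Sdha stood at 117, 209 and 131 CPM at p6 and 154, 196 and 176 at p18, and these ranges overlapped (0.20 ± 0.19, edgeR adjusted p = 0.467). In complex III the core protein Uqcrc2 rose by 1.21 ± 0.23, the hinge protein gene Uqcrh by 1.15 ± 0.19 and the Rieske iron-sulfur protein gene Uqcrfs1 by 0.93 ± 0.21.

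In complex IV all 12 genes other than the tissue isoforms rose, by 0.77 to 1.55, and the p6 and p18 libraries did not overlap in any of the 12. Cox4i1, which encodes the largest nuclear subunit, stood at 92.2, 149 and 131 CPM at p6 and 322, 295 and 332 at p18, a log2 change of 1.35 ± 0.20. Cox7b (1.55 ± 0.29) and Cox7a2 (1.51 ± 0.24) changed most, and Cox5a, a matrix-side subunit, least (0.77 ± 0.20). Cox7a2l, a supercomplex assembly factor, rose by 0.85 ± 0.13. None of the 6 tissue isoforms rose, and their median change was -0.63. In complex V Atp5g1, which encodes subunit c of the proton-conducting ring, rose most. Its level was 7.04, 12.9 and 17.4 CPM at p6 and 47.5, 44.9 and 45.7 at p18, a log2 change of 1.87 ± 0.28 (edgeR adjusted p = 0.000145). The other subunit c genes rose too, Atp5g3 by 1.26 ± 0.15 and Atp5g2 by 0.94 ± 0.20, though Atp5g2 has 2 near-identical copies elsewhere. The F1 subunits Atp5b and Atp5a1 rose by 0.90 ± 0.22 and 0.88 ± 0.20.

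How many of the 69 pass depends on the scaling. TMM factors centre the bulk of genes, and with library totals the median of all genes moved to -0.42 and that of the 92 genes to 0.49, with 14 called higher (4.41% of all genes). With totals without Rn45s these were -0.46, 0.48 and 24, with 5.95% of all genes called higher, and Cox8b was called lower. Relative to the median of all genes, 86 of the 92 were higher under each of the 3 scalings. A change of scaling moves all genes of a library alike, so this agreement was nearly fixed in advance and adds no support. With 1 factor of unwanted variation 43 were called, beside 4.65% of all genes. Leaving out any 1 library left 62 to 74, and leaving out WT p6 replicate 1 and ΔSE p6 replicate 3 together left 63 higher and 1 lower.

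**Figure D2:**
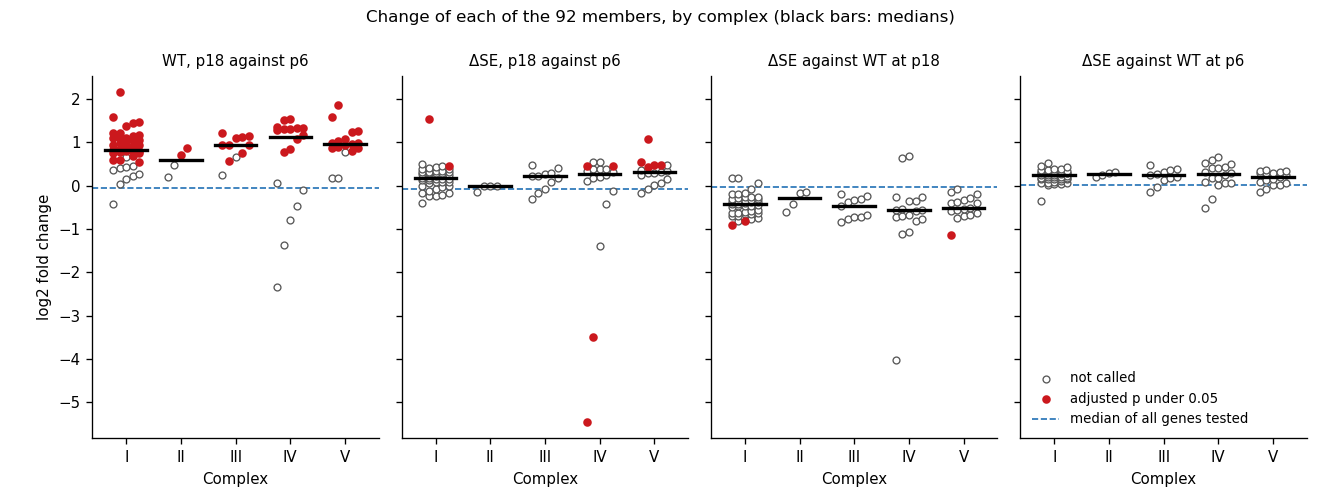
log2 fold change (y axis) of each of the 92 genes by complex (x axis) in 4 comparisons. Filled red points passed an adjusted p of 0.05, black bars are medians of a complex and the dashed line is the median of all genes tested; 69 genes were called higher in WT over pregnancy, against 9 in ΔSE tissue.

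The second comparison covers the same days in ΔSE tissue. From p6 to p18, 9 of the 92 genes rose and 2 fell, where 17.3% of all genes were called higher and 18.2% lower, and the median log2 change was 0.23 against -0.07 over all genes. In 15 genes the 4 p18 libraries lay above the 4 p6 libraries, against 18.8% of all genes. The 9 were Ndufc2 and Ndufa7 of complex I, Cox4i1 and Cox7a2l of complex IV, and Atp5a1, Atp5g1, Atp5g2, Atp5g3 and Atp5o of complex V. Ndufc2 stood at 19.4, 20.5, 16.9 and 23.9 CPM in ΔSE p6 and 66.8, 60.6, 51.4 and 54.6 in ΔSE p18. These did not overlap, and the log2 change was 1.53 ± 0.15 (edgeR adjusted p = 8.45e-07). Atp5g1 stood at 11.6, 16.6, 8.90 and 17.3 CPM at p6 and 31.1, 33.3, 24.0 and 26.9 at p18, again without overlap (1.07 ± 0.24). The other 7 changed by 0.43 to 0.55. In complex II Sdha changed by -0.15 ± 0.16, and the other 3 genes by -0.01 or less in size. The count of 9 turned on single libraries: it was 4 without ΔSE p6 replicate 3, 4 without ΔSE p18 replicate 4, 5 without ΔSE p18 replicate 2 and 20 without ΔSE p6 replicate 4. Over all genes 2774, 2757, 2548 and 3045 were called higher in these fits. With library totals 1 gene was called higher and 19 lower, beside 3.55% and 44.7% of all genes, the median of all genes being -0.65 and that of the 92 genes -0.39, and in that scaling Atp5a1, Atp5o, Cox4i1, Cox7a2l and Ndufa7 had negative estimates. Relative to the median of all genes, 73 of the 92 were higher under both scalings, an agreement that was again nearly fixed in advance.

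**Figure D3:**
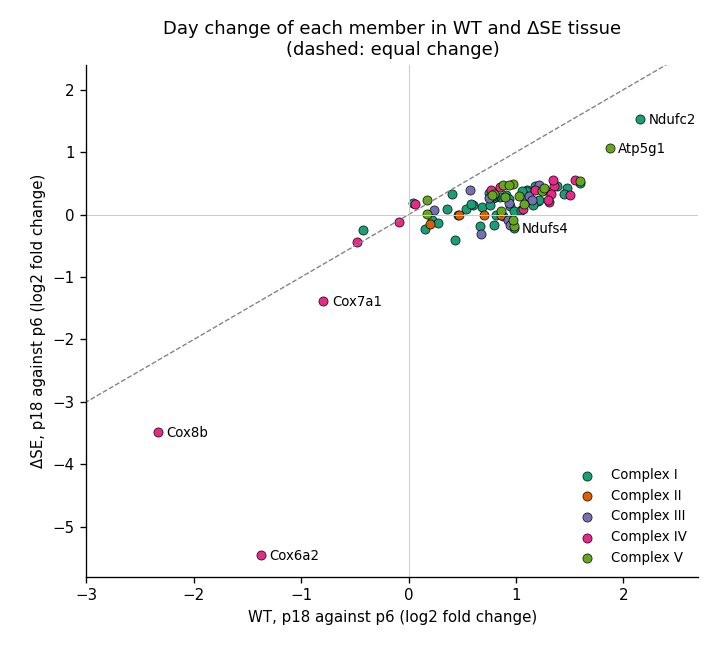
Change from p6 to p18 of each of the 92 genes in WT tissue (x axis) and ΔSE tissue (y axis), both as log2 fold changes, coloured by complex; the dashed line marks equal change. The estimate was lower in ΔSE than in WT for 87 of the 92 genes, and the isoforms Cox6a2, Cox7a1 and Cox8b lie apart at the lower left.

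Whether the day effect differed between the genotypes was tested by an interaction term. The estimate was negative, that is a smaller rise or a larger fall in ΔSE, for 87 of the 92 genes, with a median of -0.74 against -0.06 over all genes. The edgeR fit called 0 of the 92 genes, where 0.134% of all genes were called lower and 0.140% higher. There were 0 positive estimates with an unadjusted p under 0.05. In the negative direction 57 genes had an unadjusted p under 0.05, as did 10.1% of all genes, and DESeq2 called 21, beside 1.75% of all genes. The largest of the estimates other than those of isoforms were those of Ndufs4 (-1.20 ± 0.27, edgeR adjusted p = 0.0594), Cox7a2 (-1.19 ± 0.31) and Atp5e (-1.16 ± 0.31). Single p6 libraries changed the count. Without WT p6 replicate 2 the fit called 30 of the 92 genes lower, beside 3.11% of all genes. Without ΔSE p6 replicate 3 it called 7, beside 0.259%. Without the 2 lowest p6 libraries, chosen after seeing the data, it called 11, beside 0.266%, with a median of -0.58.

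At p18, ΔSE tissue held less RNA of these genes than WT tissue in 87 of 92 estimates, with a median log2 difference of -0.47 against -0.04 over all genes. In 65 genes all 4 ΔSE libraries lay below all 3 WT libraries, against 9.80% of all genes, and in 0 genes above them, against 5.28%. Only 3 genes, Ndufs4, Ndufa7 and Atp5e, were called lower and 0 higher at an adjusted p under 0.05, where 0.353% of all genes were called lower and 0.101% higher. DESeq2 called 14 lower and 0 higher, and 53 genes had an unadjusted p under 0.05 with ΔSE lower and 0 with ΔSE higher (8.31% and 3.75% of all genes). Ndufs4, an accessory subunit of the electron input module of complex I, stood at 53.8, 43.1 and 52.7 CPM in WT and 25.4, 25.6, 23.0 and 31.7 in ΔSE. The groups did not overlap, and the log2 difference was -0.91 ± 0.19 (edgeR adjusted p = 0.0405). Ndufa7, a subunit of the same complex, stood at 70.5, 68.2 and 73.0 CPM in WT and 36.8, 36.4, 40.9 and 46.9 in ΔSE (-0.81 ± 0.17). Atp5e, which encodes the epsilon subunit of the F1 stalk, stood at 56.8, 40.6 and 52.5 CPM in WT and 19.7, 20.4, 22.2 and 28.3 in ΔSE (-1.14 ± 0.22). In complex IV Cox4i1 stood at 322, 295 and 332 CPM in WT against 197, 206, 164 and 199 in ΔSE, without overlap, and its difference of -0.72 ± 0.18 missed the threshold (edgeR adjusted p = 0.0809).

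By complex, the libraries of the genotypes did not overlap in 30 of 42 genes of complex I, 2 of 4 of complex II, 8 of 11 of complex III, 12 of 18 of complex IV and 13 of 17 of complex V, each with ΔSE lower, and the medians were -0.43, -0.29, -0.47, -0.57 and -0.52. Subunits of complex I differed more than assembly factors, whose median over complexes I and III was -0.19, but the difference between these classes was not tested. Shorter transcripts had the lower estimates, with a Spearman rho of 0.538 between transcript length and log2 difference over 86 genes (Pearson r = 0.499 with log2 length) and 0.200 over 15571 genes. The count of 3 was 0 without any 1 WT p18 library or any of ΔSE p18 replicates 1 to 3, 1 without ΔSE p18 replicate 4, 0 with either kind of library total, 14 with DESeq2, 44 in a fit of the 2 groups alone and 35 without the 2 lowest p6 libraries. In the last 3 settings 2.02%, 3.03% and 1.32% of all genes were called lower. The cause of these shifts was not tested, and the median stayed between -0.54 and -0.39 under each of the settings just named. The summed epithelial and milk protein level also differed between these groups, at 31227 to 43028 CPM in WT and 14358 to 27164 in ΔSE. That list includes Csn3 of the edited locus, its only called gene (-6.00 ± 1.08). The milk protein genes Csn2, Wap and Lalba had estimates of -0.52, -1.46 and -1.56. The keratin Krt18 stood at 207 to 317 and 274 to 311 CPM, with an estimate of 0.07. Krt8 and Epcam had estimates of 0.26 and 0.15, and Krt14, Krt5 and Elf5 of -0.08, -0.22 and -0.49. The Rn45s share was 29.7% to 33.4% in WT p18 and 35.7% to 42.9% in ΔSE p18, without overlap. The part of these genes and of Rn45s in the result was not tested.

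At p6 no gene passed the test between the genotypes. The edgeR fit called 0 of the 92 genes higher and 0 lower, where 0.572% and 0.516% of all genes were called, as did DESeq2, and 6 had an unadjusted p under 0.05 with ΔSE higher. The median log2 difference was 0.25, with 85 of 92 estimates positive, and in 1 gene the ΔSE libraries lay above and in 0 below all WT libraries, against 6.36% and 4.99% of all genes. The median was 0.04 without WT p6 replicate 1. Without WT p6 replicate 2 the count was 8 of 92 higher, beside 5.69% of all genes.

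The muscle isoforms behaved apart from their housekeeping partners. Cox6a2 (chr7:128205435-128206387) replaces Cox6a1 in striated muscle, Cox7a1 (chr7:30184144-30186078) replaces Cox7a2 in heart and skeletal muscle, and Cox8b (chr7:140898945-140900446) replaces Cox8a in muscle and brown fat. Cox6a2 had 42, 47 and 110 reads in the WT p6 libraries, 0, 22 and 50 in WT p18, 4, 146, 10 and 126 in ΔSE p6 and 0, 2, 2 and 0 in ΔSE p18. The WT groups overlapped, ΔSE p6 held 2 low and 2 high libraries, and in ΔSE p18 all 4 were at 2 reads or fewer. From p6 to p18 in ΔSE tissue Cox6a2 fell (edgeR adjusted p = 0.015), with a fitted log2 change of -5.45 ± 1.50 that depends on how the model treats 4 reads in all. With 1 factor of unwanted variation the estimate for Cox6a2 was 3.59 (adjusted p = 0.599 by edgeR), so that its direction turned and the call was lost. In that setting none of the 92 genes and 0.0616% and 0.00560% of all genes were called higher and lower from p6 to p18 in ΔSE tissue. As a share of Cox6a1 reads, Cox6a2 amounted to 4.86% to 20.1% in WT p6, 0% to 3.16% in WT p18, 0.576% to 19.1% in ΔSE p6 and at most 0.310% in ΔSE p18.

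Cox6a2 was high where skeletal muscle transcripts were high. Acta1, skeletal muscle actin, stood at 244, 420 and 394 CPM in WT p6, 1.64, 230 and 361 in WT p18, 12.9, 677, 34.7 and 742 in ΔSE p6, and 3.68, 3.59, 2.67 and 3.83 in ΔSE p18, and the libraries with little Acta1 were those with little Cox6a2. Of 15 skeletal muscle genes, 14 fell from p6 to p18 in ΔSE tissue and 0 were called in WT tissue, with medians of -7.53 and -1.13. Over all genes 18.2% and 12.4% were called lower. The summed level of the list was 1838 to 3155 CPM in WT p6, 8.86 to 2031 in WT p18, 83.5 to 4767 in ΔSE p6 and 13.8 to 28.1 in ΔSE p18. The part of these transcripts in the isoform values was not tested.

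**Figure D4:**
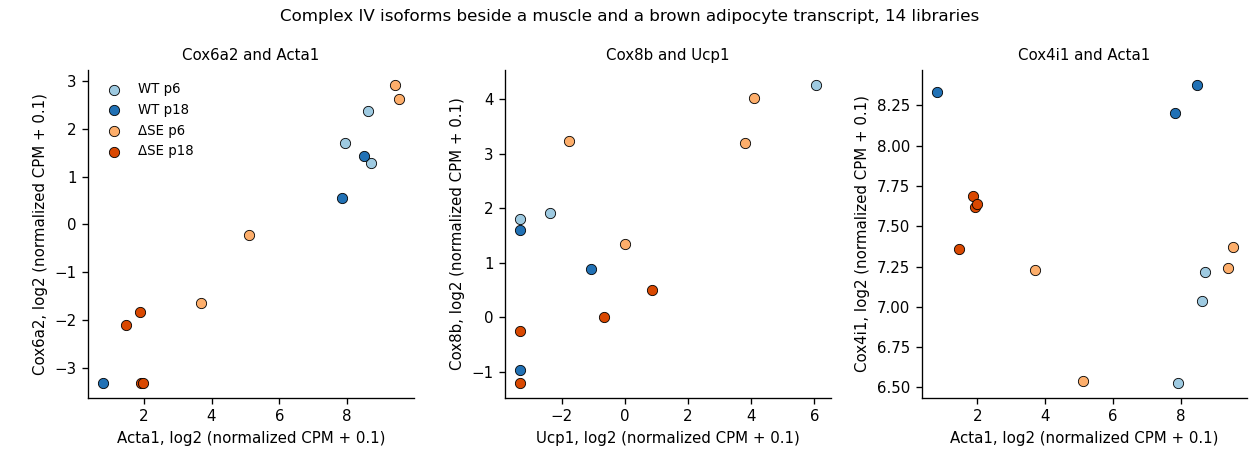
Level of Cox6a2 against Acta1 (left), Cox8b against Ucp1 (middle) and Cox4i1 against Acta1 (right) in the 14 WT and ΔSE libraries, each axis as log2 of normalised CPM + 0.1. Points are libraries; WT p18 replicate 1 has Acta1 at 1.64 CPM and Cox4i1 at 322 CPM, beside 295 and 332 in the libraries with Acta1 at 230 and 361.

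Cox8b stood at 3.40, 19 and 3.69 CPM in WT p6, 0.409, 1.75 and 2.92 in WT p18, 9.09, 16.2, 2.43 and 9.33 in ΔSE p6 and 0.737, 0.898, 0.334 and 1.32 in ΔSE p18. It was lower at p18 in both genotypes without overlap. The change was called in ΔSE (-3.49 ± 0.84, edgeR adjusted p = 0.00727) and not in WT (-2.34 ± 0.86, edgeR adjusted p = 0.0621), and the interaction missed the threshold (-1.15 ± 1.20, edgeR adjusted p = 0.68). Ucp1, the uncoupling protein of brown fat, was at 65.9 CPM in the WT p6 library with most Cox8b. It was at 13.8 and 17 CPM in ΔSE p6 replicates 1 and 2 and at 0 to 1.72 CPM in the other 11 libraries. Among those were WT p6 replicate 1 and ΔSE p6 replicate 4, where Cox8b was at 3.40 and 9.33. The summed level of 10 brown fat genes, Ucp1 among them, was 34.6, 188 and 48.2 CPM in WT p6 and 79.4 to 140 in WT p18. Its median was 87.2 CPM in ΔSE p6 and 66.3 in ΔSE p18. From p6 to p18, 5 of the 10 estimates were positive in WT tissue and 4 in ΔSE tissue. The part of brown fat transcripts in the Cox8b values was not tested. Cox7a1 stood at 2.42, 11.6 and 3.23 CPM in WT p6, 2.66, 3.57 and 3.81 in WT p18, 2.89, 8.86, 1.22 and 3.11 in ΔSE p6 and 0.645, 2.24, 1.87 and 1.39 in ΔSE p18, and edgeR called it in none of the 4 comparisons of 2 groups, although ΔSE p18 lay below WT p18 without overlap (-1.11 ± 0.68). DESeq2 called it lower at p18 than at p6 in ΔSE tissue. Cox7a1 amounted to 2.90% to 4.91% of Cox7a2 reads in WT p18 and 1.29% to 4.53% in ΔSE p18. The low-abundance isoforms Cox4i2, known from lung, and Ndufa4l2, a hypoxia-induced relative of Ndufa4, were at 0.521 to 1.71 and 0.983 to 3.16 CPM over all 14 libraries and were not called in any of these comparisons.

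Levels of the 86 genes other than tissue isoforms can be set beside the muscle transcripts in WT p18. WT p18 replicate 1, with 8.86 CPM in the summed muscle list, had the lowest median relative level of its group, 0.52, beside 0.54 and 0.60 in the libraries with 1328 and 2031 CPM. Without those 2 libraries WT p18 was left with replicate 1 alone. The median difference between ΔSE and WT at p18 was then -0.43, with 81 of 92 estimates negative. That setting rests on 1 WT library and was chosen after seeing the data. The part of muscle transcripts in these levels was not tested.

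Genes around oxidative phosphorylation were read out from lists chosen by function. Over all genes tested, 17.2% were called higher and 12.4% lower from p6 to p18 in WT tissue. In ΔSE tissue these shares were 17.3% and 18.2%. Between the genotypes at p18, 0.353% of all genes were called lower. A count near these shares is no result about a list. Of 10 electron carriers and further subunits, 5 rose and 1 fell in WT tissue from p6 to p18: cytochrome c1 (Cyc1) rose by 0.94 ± 0.17, the ATP synthase inhibitor Atpif1 by 0.87 ± 0.16 and Usmg5, a small ATP synthase subunit, by 1.42 ± 0.29, and the glycerol phosphate dehydrogenase Gpd2, named after its value was seen, fell (-0.98 ± 0.29). In ΔSE tissue 2 of the 10 rose and 2 fell. Of 18 genes of the citric acid cycle and pyruvate oxidation, 10 rose and 0 fell in WT tissue (median 0.63), among them Suclg2 (1.05 ± 0.14), Dlat (1.29 ± 0.24) and Idh2 (0.61 ± 0.13). In ΔSE tissue 3 rose and 1 fell (median 0.03). Of 77 mitochondrial ribosomal protein genes, 55 rose and 0 fell in WT tissue (median 0.76) and 25 rose and 0 fell in ΔSE tissue (median 0.27). Of 35 assembly factors outside the Nduf and Uqcc symbols, 9 rose in WT tissue (median 0.35) and 5 rose and 2 fell in ΔSE tissue (median 0.09), with Cox14 (1.17 ± 0.18), Pet100 (1.06 ± 0.21) and Coa3 (0.96 ± 0.20) first in WT tissue. Among 16 regulators of mitochondrial biogenesis, 2 rose in WT tissue and the median change was -0.04. These were the nuclear receptor Esrra (0.92 ± 0.15) and Gabpa (0.43 ± 0.13), which overlaps an exon of Atp5j. In ΔSE tissue 4 rose, namely Esrra (0.70 ± 0.13), the coactivator Ppargc1b (1.02 ± 0.19), Gabpa (0.37 ± 0.11) and Tfb1m, and Polg, the mitochondrial DNA polymerase, fell. Tfb1m and Polg were named after their values were seen. Between the genotypes at p18 the medians were -0.36 for the carriers, -0.31 for the citric acid cycle, -0.25 for the mitochondrial ribosome, -0.23 for the assembly factors and 0.02 for the regulators, and of these 5 lists edgeR called 2 of 77 mitochondrial ribosomal genes lower and no gene of the other 4. The lists of mammary epithelium and white fat changed as well: 6 of 10 epithelial genes rose and 1 fell in WT tissue (8 and 1 in ΔSE), and 0 of 10 white fat genes rose and 3 fell (0 and 7 in ΔSE). Of 10 brown fat genes, 1 fell in WT and 2 in ΔSE.

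The single-enhancer lines were compared with WT p18 and with each other. Against WT, 27 of the 92 genes were higher and 16 lower in delCsn1s2b-E, where 17.5% and 15.2% of all genes were called, and 31 were higher and 8 lower in delCsn3-PE, where 14.2% and 11.6% were called. The median differences were 0.16 and 0.29. The enhancer deletion and the set of libraries cannot be told apart here. The Rn45s share was 0.0765% to 0.924% in the single-enhancer libraries and 29.7% to 33.4% in WT p18. The extraction note of the single-enhancer libraries names tissue of WT mice at lactation day 1 and 10, which leaves their stage uncertain. Both comparisons share the same 3 WT libraries. The summed epithelial and milk protein level, Csn3 included, was 32060 to 44380 CPM in WT p18, 42096 to 84670 in delCsn3-PE and 58985 to 94257 in delCsn1s2b-E. The summed muscle level was 9.14 to 2085, 7.78 to 55.2 and 30.9 to 883 in the same order. Their part in the results was not tested.

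Members of 1 complex went opposite ways in this comparison. In complex I Ndufb7 stood at 40.9, 48.8 and 40.4 CPM in WT, 19.4 and 15 in delCsn3-PE and 8.41, 12.6 and 13.8 in delCsn1s2b-E, log2 differences of -1.33 ± 0.21 and -1.90 ± 0.19 from WT. Ndufab1 stood at 3.23, 3.40 and 3.69 CPM in WT, 7.88 and 7.36 in delCsn3-PE and 8.44, 10.6 and 7.31 in delCsn1s2b-E, differences of 1.14 ± 0.21 and 1.35 ± 0.19. Neither gene overlapped between WT and either line. The core subunits Ndufs7 and Ndufs1 differed by -1.37 ± 0.16 and 0.62 ± 0.14 in delCsn1s2b-E. In complex III Uqcr11 was lower (-1.27 ± 0.16) and Uqcrb, with 3 near-identical copies elsewhere, higher (0.99 ± 0.14), and in complex IV Cox4i1 was lower (-0.59 ± 0.15) and Cox5a higher (1.03 ± 0.14). In complex V Atp5g2 was lower (-1.01 ± 0.19) and Atp5g3 higher (0.97 ± 0.12), all in delCsn1s2b-E.

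These differences went with the GC content of the transcripts. Over 86 genes the Spearman rho between GC content and log2 difference from WT was -0.635 (Pearson r = -0.671) in delCsn1s2b-E and -0.620 (r = -0.647) in delCsn3-PE, and over 15112 genes tested it was -0.572 and -0.501. In ΔSE against WT at p18 it was -0.0829 over the same 86 genes. Of 22 genes with 55% GC or more, 2 were higher and 11 lower in delCsn1s2b-E, with a median of -0.41, and of 36 genes under 50% GC 17 were higher and 1 lower, with a median of 0.36. In delCsn3-PE the medians were -0.15 and 0.46. The part of GC content in the result was not tested.

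**Figure D5:**
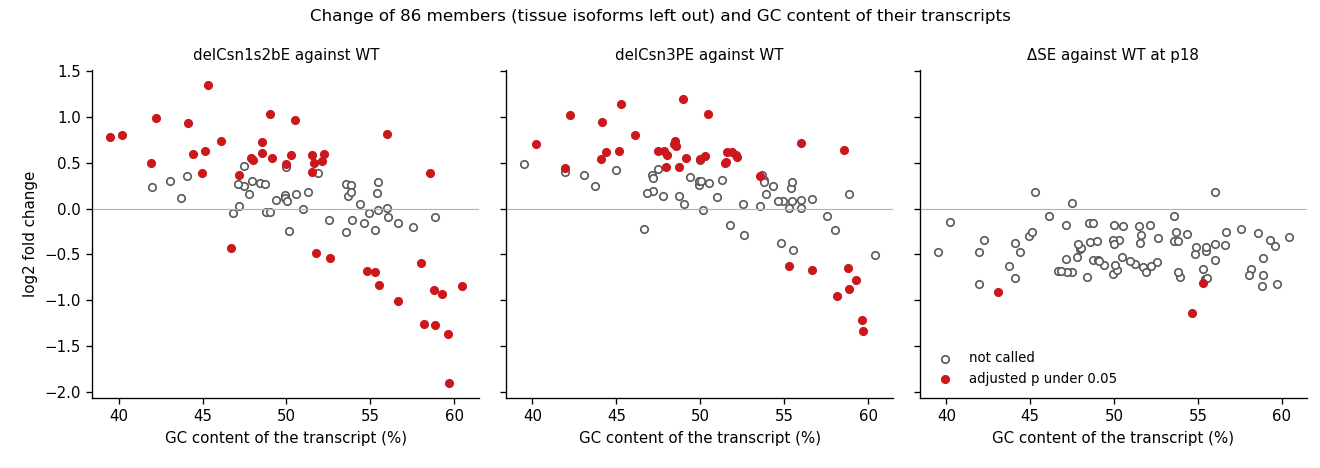
log2 fold change against WT p18 (y axis) and GC content of the principal transcript (x axis, percent) of 86 genes in delCsn1s2b-E, delCsn3-PE and ΔSE tissue. Filled red points passed an adjusted p of 0.05; the estimates fall with GC content in the first 2 panels (rho -0.635 and -0.620), and rho is -0.0829 in the third.

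Between the 2 single-enhancer lines, which belong to the same set, edgeR called 0 of the 92 genes higher and 0 lower in delCsn1s2b-E, where 0.0117% and 0.193% of all genes were called. DESeq2 also called 0, and 0 genes were higher and 5 lower at an unadjusted p under 0.05. The median difference was -0.13. In 13 genes all 3 delCsn1s2b-E libraries lay below both delCsn3-PE libraries and in 0 above, against 10% and 10.8% of all genes. Ndufb7 (-0.57 ± 0.20) and Ndufb6 (-0.43 ± 0.15) had low estimates that missed the threshold. Here too GC content went with the estimate, at a Spearman rho of -0.472 over 86 genes and -0.198 over 15112. Against WT, the counts in delCsn3-PE rested on few libraries, with 20 higher without WT p18 replicate 3 (9.19% of all genes). Leaving out either delCsn3-PE library leaves 1 in that group. Leaving out the 2 WT libraries high in muscle transcripts leaves WT p18 replicate 1 alone. Counts of such fits are not given. With library totals 52 were higher and 5 lower in delCsn1s2b-E, beside 32.1% and 5.14% of all genes, and 61 and 3 in delCsn3-PE, beside 30.1% and 3.60%. The medians of all genes were then 0.40 and 0.42. With totals without Rn45s 14 were higher in each line, beside 6.97% and 4.26% of all genes, and 16 and 9 lower in delCsn1s2b-E and delCsn3-PE, beside 14.4% and 9.47%.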

How the data were processed

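Total RNA-seq was made from mouse mammary tissue in 19 libraries. Per the labels and the study's methods, the authors used Trimmomatic 0.36 for trimming, STAR 2.5.4a for alignment to mm10, and HTSeq 0.9.1 to count reads in genes. The deposited values are raw counts, 1 file a library, and the strand setting of the counting is not given in the sources used here. Entries that name no gene were in 5 files and were left out.

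Counts were analysed with edgeR 4.0.16 (R 4.3.3) by TMM factors and the robust quasi-likelihood test, on genes with at least 10 reads in all, with Benjamini-Hochberg adjustment over all genes tested and a threshold of 0.05. Groups came from the labels. WT and ΔSE tissue, 14 libraries in 4 groups, were fitted on 17844 genes, and WT p18 with both single-enhancer lines, 8 libraries, separately on 17125 genes. DESeq2 1.42.0, other scalings, other filters, a replicate block, 1 factor of unwanted variation and leaving out libraries were alternatives. The steps were tested on simulated data. GENCODE M21 gave lengths, GC content and positions (GRCm38). The SE of a log2 change was computed as the size of the estimate divided by the square root of its quasi-likelihood F statistic. Intervals and floors that counting allows cover counting error only, and the SE values are not among these.

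The genes and lists were chosen with earlier results of these data known. Genes are named by rule: isoforms and their partners, core subunits, in each complex the 3 called genes with the largest rise and fall per comparison and the 2 highest per kilobase, and from other lists the 3 called genes with the smallest p. Outside this rule, Acta1, Ucp1 and the genes of the mammary epithelium list, Krt18 among them, are named as cell type markers after their values were seen.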

Additional observations from a re-analysis of the deposited data

Results flagged for a closer look

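ΔSE p6 replicate 3 lay far below the other 3 libraries of its group for 4 genes, judged by its gap to the next library as a share of the group's range (Dixon's critical value 0.829 for 4 libraries). Atp5a1 stood at 315 normalised CPM there against 445 to 451 in the others, a gap of 0.950 of the range. Sdhd stood at 36.5 against 62.4 to 64.3 (0.933), Uqcrh at 51.3 against 83.3 to 87.6 (0.883) and Ndufab1 at 2.13 against 3.69 to 3.70 (0.989). The same library was the lowest of its group in the share of reads in the 92 genes, so these 4 values are not independent of each other. Of 132 gene and group combinations tested 4 were marked, and chance marks about 1 in 20.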

How the results depend on the processing

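For WT p18 against p6 (69 higher, 0 lower), the higher count was 43 with 1 factor of unwanted variation, beside 830 of all 17844 genes. It was 14 with library totals, beside 787 of 17844, and 24 with totals without Rn45s, with the share given above. With 1 library left out it was 62 to 74. The lower count was 1 with DESeq2, beside 2831 of 17844 genes, and with filterByExpr, beside 2501 of 15140. It was also 1 with totals without Rn45s and without the 2 lowest p6 libraries. With 1 library left out it was 0 to 1. The gene was always Cox8b. For ΔSE p18 against p6 (9 higher, 2 lower), the counts were 0 and 0 with unwanted variation, beside 11 and 1 of all 17844 genes. With library totals they were 1 and 19, beside 634 and 7984 of 17844. With totals without Rn45s they were 1 and 10, beside 1069 and 6174 of 17844. With 1 library left out they were 4 to 20 and 2 to 3, beside 2548 to 3168 and 2574 to 2962 genes. In a fit of the 2 groups alone 19 were higher, beside 3447 of 17113 genes. Without the 2 lowest p6 libraries 14 were higher, beside 3195 of 17675. For ΔSE against WT at p18 (3 lower), 0 remained with unwanted variation, library totals or totals without Rn45s, beside 61, 17 and 9 of 17844 genes. With filterByExpr 1 remained, beside 25 of 15140. The count was 14 with DESeq2, beside 361 of 17844 genes, and 44 in the 2 groups alone, beside 502 of 16547. It was 35 without the 2 lowest p6 libraries, beside 233 of 17675. With 1 library left out it was 0 to 1, beside 2 to 96 genes. At p6 the higher count was 0 to 8 with 1 library left out, beside 11 to 1009 of all genes. For the interaction (0 lower), the lower count was 21 with DESeq2, beside 312 of 17844 genes. It was 1 (Ndufs4) with no filter, beside 44 of 20097, and 11 without the 2 lowest p6 libraries, beside 47 of 17675. With 1 library left out it was 0 to 30, beside 0 to 552 genes. For delCsn1s2b-E (27 higher, 16 lower) the counts were 52 and 5 with library totals, beside 5496 and 881 of 17125 genes. With totals without Rn45s 14 were higher, beside 1193 of 17125. With 1 library left out the counts were 19 to 25 and 12 to 16, beside 2047 to 2601 and 1922 to 2282 genes. For delCsn3-PE (31 higher, 8 lower) they were 16 higher with unwanted variation, 61 and 3 with library totals, 14 higher with totals without Rn45s, 10 and 4 without the 2 WT libraries, and 8 to 26 and 4 to 8 with 1 library left out. In ΔSE tissue over pregnancy, library totals gave Atp5a1 -0.14, Atp5o -0.0715, Cox4i1 -0.17, Cox7a2l -0.15 and Ndufa7 -0.13 on the log2 scale, and 1 factor of unwanted variation gave Cox6a2 3.59. The settings without 2 p6 or 2 WT p18 libraries were chosen after seeing the data. Counts of called genes are not given where a fit leaves 1 library in a group, as without 2 WT p18 libraries or without either delCsn3-PE library. The cause of these shifts was not tested.

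Replicate numbers were not used to pair the libraries. In the WT and ΔSE set, deviations of same-numbered libraries correlated at -0.31 to 0.26 (6 of 19 pairs over 0.1). Those of differently numbered libraries correlated at -0.31 to 0.39 (14 of 54). In the other set the ranges were -0.67 to 0.38 (2 of 7) and -0.54 to 0.67 (7 of 14). The 2 delCsn3-PE libraries deviate from their mean as mirror images, so that set cannot decide whether the numbers pair libraries. With the replicate block 71 genes were higher in WT over pregnancy. In ΔSE 10 were higher and 3 lower, beside 2916 and 3068 of 17844 genes. Between ΔSE and WT at p18 3 were lower, beside 42 of 17844. In delCsn1s2b-E 22 were higher and 17 lower, beside 2363 and 2136 of 17125. In delCsn3-PE 13 were higher and 5 lower, beside 1141 and 1227 of 17125. With 2 to 4 libraries a group, and 0 to 146 reads for Cox6a2, small changes of low genes could not be detected.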
